A study of Mus musculus with 27 samples.

Results

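The genes described here are 33 genes of DNA replication and S phase, the stage of the cell cycle in which the genome is copied. They were taken from the deposited expression table by gene symbol, for their roles in origin licensing, replication and nucleotide synthesis. All 33 symbols were found among the 19069 named genes of the table, and all 33 passed the filter on low values described with the processing.

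The series holds 27 RNA-seq libraries of macrophages grown from mouse bone marrow, in 9 groups of 3, made to compare FLASH proton irradiation, in which the dose is given at an ultra-high rate, with a standard proton beam. Bone marrow cells of C57/B6 mice were left without irradiation or received 5 Gy by either beam, and only then were they grown into macrophages with CSF-1 (10 ng/ml, 7 days). Each of the 3 arms was then kept for 2 days in control medium (M0), in 100 ng/ml LPS, a bacterial product that drives the inflammatory M1 state, or in 20 ng/ml IL-4, a cytokine that drives the M2 state. The irradiated cells were thus marrow cells before differentiation. The labels do not say whether replicates were separate animals or cultures, so p-values measure only the spread between these libraries.

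Before S phase, the origin recognition complex (Orc genes), Cdc6 and Cdt1 load the Mcm2 to Mcm7 helicase onto replication origins, a step called licensing. Cyclin E (Ccne1, Ccne2) and its kinase then start replication, and E2F factors, of which E2f1 is one, switch on many of these genes. Most mature macrophages do not divide, whereas their marrow precursors and macrophages grown with CSF-1 can.

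Levels are given as the deposited read counts, scaled by the authors to about 1000000 per library (CPM), which are not divided by gene length, so they are compared between libraries and not between genes. Assigned reads recovered from the table were 20679257 to 25844213 per library. Cdkn1a and Phlda3, 2 of the genes chosen to check irradiation, separated the arms. Cdkn1a was at 168 to 353 CPM in the 9 non-irradiated libraries and 478 to 858 CPM in the 18 irradiated ones. Phlda3 was at 16.7 to 46.8 against 71.7 to 182 CPM. Mdm2 and Ccng1, also chosen for this check, are counted only among the p53 targets below. Macrophage markers were present throughout, with 11 of 11 measured at a mean of at least 1 CPM in both. In 5 libraries the genes of the LPS and IL-4 states went against the label: replicate 1 of FLASH M0, FLASH M1, FLASH M2, standard M1 and standard M2. For example the library labelled FLASH M2 replicate 1 had 311 CPM of the LPS-induced gene Oasl1 and 6.81 CPM of the IL-4-induced gene Arg1. These 5 keep their labels below, and results that rest on them are also given without them. A further library, non-irradiated M2 replicate 3, stood apart in the replication genes themselves and is described with the IL-4 state.

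Most of the 33 genes moved together from library to library. Rrm2, the small subunit of ribonucleotide reductase, which makes deoxynucleotides, tracked the set most closely: its correlation with the median of the other 32 genes was 0.99 over the 27 libraries. Uhrf1, which brings the maintenance methylase to newly copied DNA, followed at 0.98 and Rrm1, the large reductase subunit, at 0.97. The least alike were Pcna, the sliding clamp of the replication fork, at -0.08, and E2f1 at 0.48. These correlations describe libraries that share groups, scaling and the 2 libraries with the highest and lowest levels of most genes, and were not tested.

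**Figure D1:**
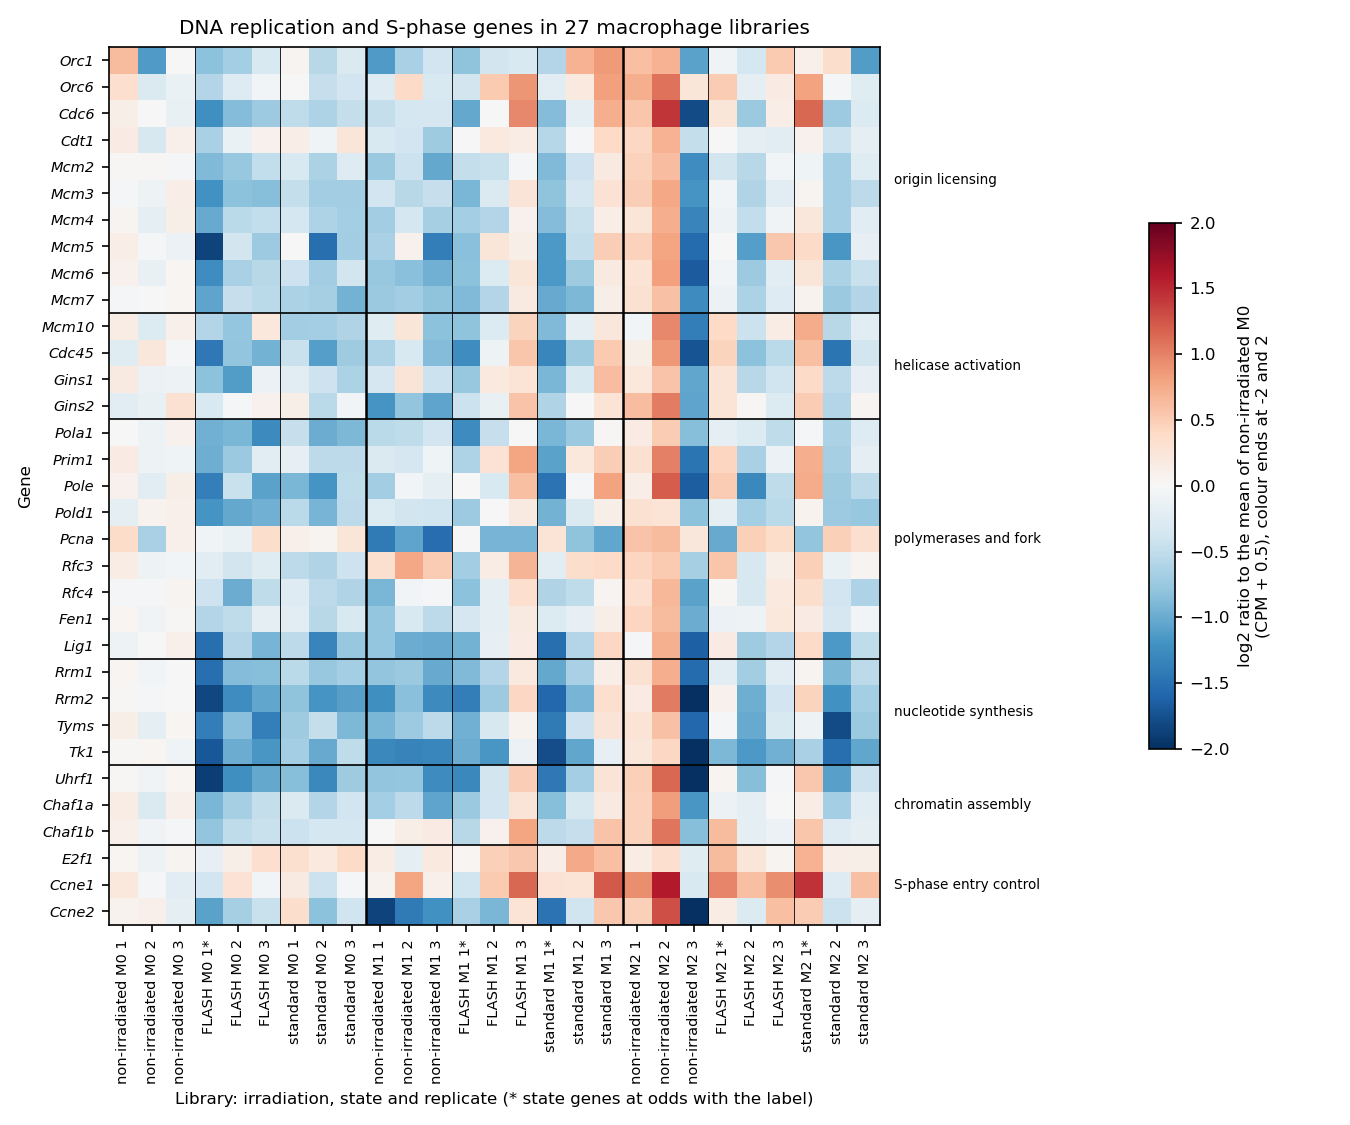
Level of each of the 33 genes (rows, grouped by role) in each of the 27 libraries (columns), as the log2 ratio to the mean of non-irradiated M0 on the CPM + 0.5 scale; asterisks mark the 5 libraries at odds with their labels. Non-irradiated M2 replicates 2 and 3 are the reddest and bluest columns, irradiated M0 columns are mostly blue, and the Pcna row follows its own pattern.

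Because most of these genes moved together, their promoters were read from RefSeq (mouse build GRCm38.p6), 300 bases from 250 before to 50 after the annotated start. The table held 33 promoters of 28 of the genes, and Gins1, Gins2, Mcm4, Ccne2 and Pole were not matched. The E2F element (a DNA word bound by E2F factors), searched on both strands as TTTCCCGC, TTTGGCGC, TTTGCCGC or TTTCGCGC, lay in 12 of the 33 promoters (36.4%) and in 2.265% of all 32851 promoters in the table. The 12 were those of Orc1, Cdc6, Cdt1, Mcm3, Mcm5, Mcm6, Mcm7, Pola1, Pold1, Rfc3, Lig1 and Uhrf1. The CCAAT box lay in 19 (57.6%) against 37.4% of all, and TTTGAA, the cell cycle homology region of mitotic genes, in 3 (9.09%) against 17.9%. CCAAT and TTTGAA were also searched on both strands, and E2F words may overlap one another. A match is a run of letters and not a measured binding site.

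The sequences given are 4 promoters of genes that the results turn on, with E2F words in capitals, and that of Pcna, the gene out of step, with its CCAAT box (ATTGG on this strand) in capitals. The Mcm3, Mcm6 and Uhrf1 promoters also hold CCAAT boxes, which are left in small letters. Rrm2 and Rrm1, which tracked the set closely, had CCAAT boxes and no E2F word, as did Pcna. Whether these words go with moving together was not tested. Positions count the first base after the 250 upstream bases as 0. In Mcm6 words begin at -110, at -106, where they overlap, and at -47. Strands are those of the gene, 5′ to 3′.
Mcm3 promoter, chr1:20820263-20820562, minus strand: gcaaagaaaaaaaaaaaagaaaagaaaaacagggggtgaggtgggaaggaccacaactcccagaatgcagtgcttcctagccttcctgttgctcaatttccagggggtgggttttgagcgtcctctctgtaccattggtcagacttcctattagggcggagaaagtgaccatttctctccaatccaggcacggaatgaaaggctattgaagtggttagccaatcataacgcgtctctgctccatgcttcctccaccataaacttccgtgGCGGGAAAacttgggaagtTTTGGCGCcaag
Mcm6 promoter, chr1:128359656-128359955, minus strand: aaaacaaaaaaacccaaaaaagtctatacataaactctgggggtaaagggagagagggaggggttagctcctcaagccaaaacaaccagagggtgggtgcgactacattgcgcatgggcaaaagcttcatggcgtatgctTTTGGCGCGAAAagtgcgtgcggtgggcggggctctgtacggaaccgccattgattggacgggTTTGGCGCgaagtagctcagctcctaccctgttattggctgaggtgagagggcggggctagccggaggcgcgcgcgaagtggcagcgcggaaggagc
Pold1 promoter, chr7:44548766-44549065, minus strand: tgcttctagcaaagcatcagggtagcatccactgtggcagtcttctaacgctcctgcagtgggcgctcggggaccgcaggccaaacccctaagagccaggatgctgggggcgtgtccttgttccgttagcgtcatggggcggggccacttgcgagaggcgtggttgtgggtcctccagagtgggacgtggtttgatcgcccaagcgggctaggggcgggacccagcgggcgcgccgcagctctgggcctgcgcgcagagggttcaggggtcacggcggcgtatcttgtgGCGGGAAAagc
Uhrf1 promoter, chr17:56304063-56304362, plus strand: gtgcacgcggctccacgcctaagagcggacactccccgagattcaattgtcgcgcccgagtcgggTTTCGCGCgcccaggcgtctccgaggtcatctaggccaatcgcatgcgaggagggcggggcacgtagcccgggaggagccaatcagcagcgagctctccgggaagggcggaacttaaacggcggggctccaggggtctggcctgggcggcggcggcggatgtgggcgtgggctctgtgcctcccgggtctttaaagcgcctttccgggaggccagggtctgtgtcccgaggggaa
Pcna promoter, chr2:132253131-132253430, minus strand: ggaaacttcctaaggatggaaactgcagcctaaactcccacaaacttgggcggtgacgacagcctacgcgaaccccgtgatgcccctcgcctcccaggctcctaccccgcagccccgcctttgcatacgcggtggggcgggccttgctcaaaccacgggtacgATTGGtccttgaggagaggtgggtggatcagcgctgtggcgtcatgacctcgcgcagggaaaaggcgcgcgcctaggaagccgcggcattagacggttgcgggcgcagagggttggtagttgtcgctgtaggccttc

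Mcm3 held E2F words at 19 and at 38. The Pold1 word began at 39, that of Uhrf1 at -185 and the CCAAT box of Pcna at -87.

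In control medium, irradiated macrophages had lower levels of most replication genes than non-irradiated ones, although no single gene passed the threshold. All 6 irradiated M0 libraries lay below all 3 non-irradiated M0 libraries for 22 of the 33 genes, an ordering seen in 8.72% of the 13297 genes tested. By arm, the 3 FLASH libraries lay below the controls for 25 genes (13% of all genes) and the 3 standard libraries for 23 (14.9% of all genes). The median difference over the 33 genes was -0.69 on the log2 scale after FLASH and -0.50 after the standard beam, beside 0.0064 and -0.0038 over all genes. Leaving out FLASH M0 replicate 1, whose state genes contradict its label, left the counts at 22 (10.3% of all genes) and, for FLASH, 25 (17.9%). The FLASH median was then -0.56, near the -0.50 of the standard beam. Both arms were compared with the same 3 control libraries.

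By role, the 4 nucleotide synthesis genes had the lowest median differences, -1.24 after FLASH and -0.71 after the standard beam. The FLASH value includes replicate 1, the library at odds with its label. Rrm2 was at 48.9, 46.5 and 48.4 CPM without irradiation, 13.2, 20.0 and 23.1 CPM after FLASH and 27.3, 21.0 and 22.3 CPM after the standard beam. The 6 irradiated libraries did not reach the lowest control, and the fitted log2 difference was -1.37 ± 0.63 (SE) for FLASH and -1.02 ± 0.63 for standard, with limma adjusted p of 0.322 and 0.498. Without the 5 libraries at odds with their labels, the Rrm2 difference was -1.14 for FLASH, nearer the -1.02 of standard. Rrm1 was at 101, 94.7 and 98.9 CPM in controls, 34.2, 53.7 and 54.3 after FLASH and 67.2, 57.7 and 61.1 after standard. Tk1, thymidine kinase, which salvages thymidine, went from 21.9 to 23.6 CPM in controls to 6.76 to 11.4 and 11.2 to 16.0 CPM. Tyms, thymidylate synthase, was at 9.09 to 11.2, 3.64 to 5.56 and 5.31 to 7.30 CPM. None of the 4 overlapped its controls in either arm.

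At the fork, the catalytic subunits of polymerase delta (Pold1) and polymerase alpha (Pola1) had the smallest p-values. Pold1 was at 24.2, 29.2 and 29.8 CPM in controls, 12.0, 13.4 and 14 after FLASH and 18.8, 14.3 and 19.1 after standard. The log2 difference was -1.05 ± 0.30 (adjusted p = 0.0745) for FLASH and -0.66 ± 0.30 (adjusted p = 0.311) for standard by limma. Pola1 was at 19.3 to 21.9 CPM in controls against 8.24 to 10.8 after FLASH and 10.1 to 14.9 after standard, with adjusted p of 0.0889 and 0.241 by limma. Lig1, which seals Okazaki fragments, Pole, the catalytic subunit of the leading-strand polymerase, Prim1, a primase subunit, Fen1, the flap nuclease, and the clamp loader genes Rfc3 and Rfc4 were also below their controls in all 6 libraries. Rfc3 had the smallest shift after FLASH among these 6 genes, at 10.1 to 11.1 CPM against 12.1 to 14.5 CPM.

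Pcna was the exception at the fork. It was at 719, 359 and 603 CPM in controls, 536, 510 and 717 after FLASH and 603, 580 and 663 after standard, so the groups overlapped fully. Its fitted difference was 0.11 (95% interval -0.72 to 0.94) after FLASH and 0.19 (-0.64 to 1.02) after standard. The table also lists the near-identical copy Pcna-ps2, between which and Pcna the read assignment could divide reads. Whether it did was not tested.

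Among the licensing genes, 10 of 10 had lower fitted means after FLASH and 9 of 10 after standard. Mcm6, a helicase subunit, was at 85.4, 72.5 and 82.7 CPM in controls, 33.5, 51.1 and 54.2 after FLASH and 60.1, 49.4 and 62.1 after standard. Mcm2, Mcm3, Mcm4 and Mcm7 likewise stayed below every control in all 6 libraries, as did Cdc6, whose product helps load the helicase. Mcm5 overlapped its controls only in the standard arm, where replicate 1 was at 17.6 CPM against 16.1 to 19.3 CPM. Orc1 and Orc6, subunits of the origin recognition complex, and Cdt1 overlapped in both arms, and Orc1 was near the filter at 1.08 to 4.83 CPM in the controls alone. Of the genes that turn the loaded helicase into a moving one, Cdc45 and Gins1 did not overlap and Gins2 did, at 24.2 to 35.2 CPM in controls and 19.4 to 30.6 CPM over the 6 irradiated libraries. Mcm10, another activation factor, overlapped in the FLASH arm only.

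Of the genes tied to new chromatin, Uhrf1 was at 40.0, 37.8 and 40.8 CPM in controls, 10.4, 16.7 and 19.2 after FLASH and 21.8, 16.0 and 23.9 after standard. Chaf1a and Chaf1b, subunits of the histone-loading complex CAF-1, were lower by less, with log2 differences of -0.67 and -0.58 after FLASH. The 3 genes of S-phase entry were mixed. E2f1 was at 35.3 to 39.1 CPM in controls and lay above them in all 3 standard libraries at 43.4 to 49.6 CPM, an ordering seen in 13.9% of all genes, while FLASH gave 33.6 to 47.9 CPM. The FLASH overlap came from replicate 1, the library at odds with its label. In the 2 remaining FLASH libraries E2f1 also lay above its controls, an ordering whose share of all genes is not given here. Ccne1 overlapped in both arms. Ccne2 lay below its controls after FLASH, at 6.05 to 9.57 against 11.5 to 14.2 CPM (log2 difference -0.72), and overlapped them in the standard arm, where replicate 1 reached 17 CPM.

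**Figure D2:**
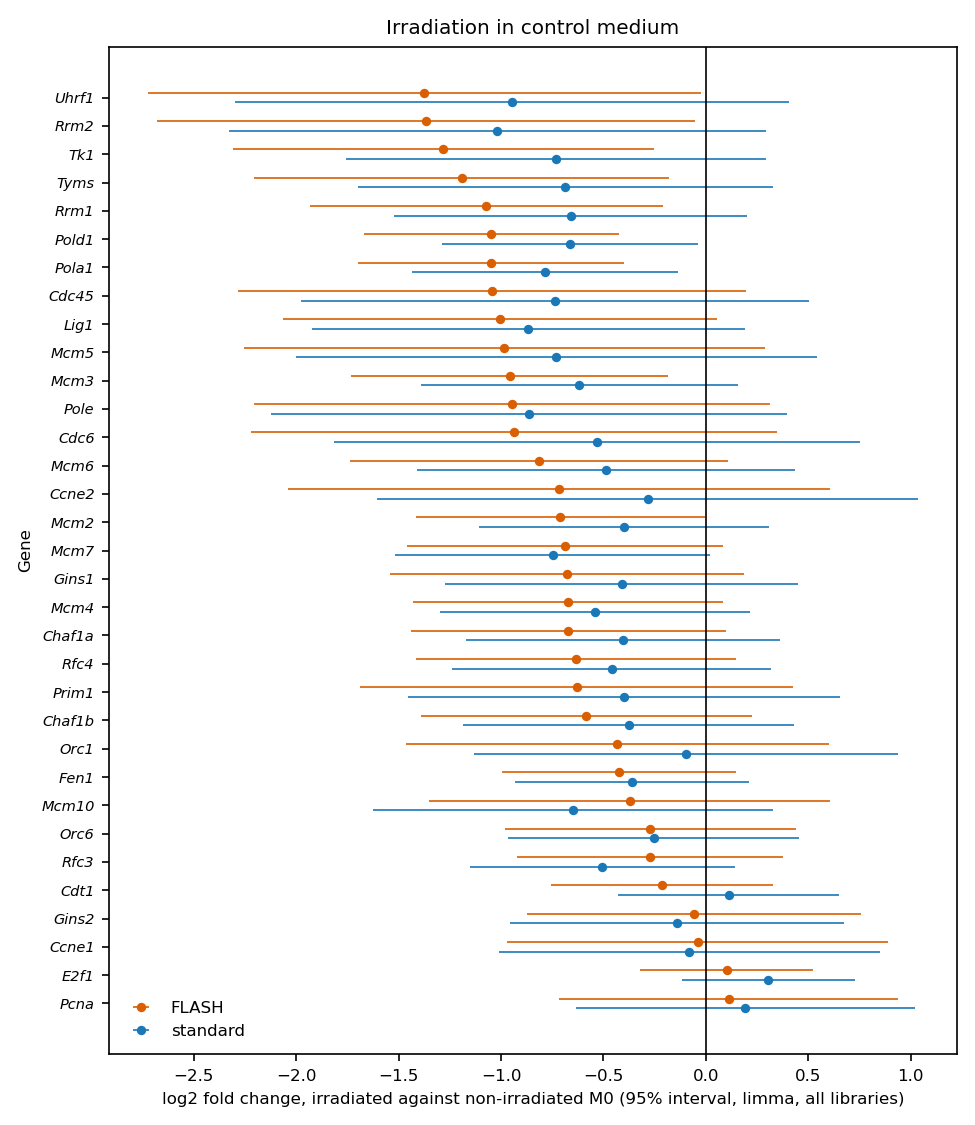
Fitted log2 fold change of each gene in control medium for FLASH (orange) and standard (blue) against non-irradiated macrophages, with 95% intervals from the limma model of all 27 libraries. 31 of 33 FLASH points and 30 of 33 standard points lie below 0, and 9 FLASH and 2 standard intervals do not reach it.

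By limma with Benjamini-Hochberg adjustment over 13297 genes, 0 of the 33 genes were called for FLASH (2.11% of all genes were called) and 0 for standard (2.02%). At an unadjusted p below 0.05 the counts were 9 and 2, all lower, beside 14.5% and 14.4% of all genes. The spread that the fit borrows was largest in a group outside this comparison: the median SD of the 33 genes was 0.14 on the log2 scale in non-irradiated M0 and 1.06 in non-irradiated M2. Fitted on the compared M0 groups alone, 8 genes were called lower for FLASH (Mcm2, Mcm3, Pola1, Pold1, Rrm1, Rrm2, Tk1 and Uhrf1) beside 1.4% of all genes, and 8 for standard (Mcm3, Mcm7, Pola1, Lig1, Rrm1, Rrm2, Tk1 and Uhrf1) beside 3.56%. Without the 5 libraries, limma called Pold1 (adjusted p = 0.0272) and Pola1 (adjusted p = 0.0485) lower for FLASH, beside 5.29% of all genes. For standard it called 0 genes (7.36% of all genes). At an unadjusted p below 0.05 the count for standard was 4, beside 24.2% of all genes.

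Markers of some other marrow cells differed between the same groups. Summed B lineage markers were at 160 to 193 CPM in non-irradiated M0 and 56.2 to 93.1 CPM in the 6 irradiated M0 libraries. Summed monocyte, mast cell and basophil, and stem and progenitor markers were also lower without overlap. Sums of dendritic cell, erythroid and megakaryocyte, T and NK cell, and stromal markers overlapped. The summed level of 17 neutrophil precursor markers was 624 to 1286 CPM in non-irradiated M0 and 45.4 to 137 CPM in the 6 irradiated M0 libraries. Over all states 16 of these 17 markers reached a mean of 1 CPM in non-irradiated and 8 of 17 in irradiated libraries, none was at 0 in every library, and Mpo, a defining granule enzyme, was at 34.9 to 71.2 CPM against 0.14 to 2.00 CPM in M0. In M0, 12 of the 17 were called lower in each arm by limma, and of 10 monocyte markers 4 were called lower for FLASH and 2 for standard, beside 2.11% and 2.02% of all genes called in either direction. In bulk RNA, fewer cells of a dividing kind and less of these RNAs per cell cannot be told apart, and the part of these other cells in the lower replication genes was not tested.

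In non-irradiated macrophages, LPS gave lower levels of most replication genes, and Pcna was the gene that passed the threshold. Pcna fell from 719, 359 and 603 CPM in M0 to 211, 270 and 194 CPM in M1, a log2 difference of -1.27 ± 0.40 (limma adjusted p = 0.0326). It was 1 of 33 genes called, beside 17.4% of all genes. The call was lost in 5 of the 6 fits that left out 1 of these libraries, with adjusted p up to 0.136 by limma; it held without non-irradiated M0 replicate 2, the lowest control. With the replicate number as a block the adjusted p of Pcna was 0.0522 by limma, which misses the threshold.

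M1 libraries lay entirely below M0 libraries for 21 genes including Pcna, beside 22.5% of all genes, although the others did not pass the threshold in the fit of all groups. Tk1 was at 9.08, 8.78 and 8.99 CPM in M1 against 21.9 to 23.6 CPM in M0, Rrm2 at 20.1, 26.7 and 19.5 against 46.5 to 48.9, and Mcm6 at 47.2, 44.8 and 41.1 against 72.5 to 85.4. Ccne2, a cyclin E that starts S phase, was at 3.31, 4.62 and 5.39 against 11.5 to 14.2 CPM and had the lowest fitted difference, -1.49 ± 0.63 (limma adjusted p = 0.107). Rfc3 went the other way, the 1 gene with M1 above M0 without overlap (22.8% of all genes), with 16.4, 22.9 and 18.7 CPM in M1 against 12.1 to 14.5 CPM in M0. E2f1 (33.3 to 43.4 CPM) and Ccne1 (9.64 to 16.1 CPM) overlapped their M0 libraries.

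The median over the 33 genes was -0.56, beside -0.01 over all genes, and 29 of 33 values were negative. Fitted on these 2 groups alone, 17 genes were called lower and 1, Rfc3, higher, beside 29.3% of all genes called in either direction. Without the 5 libraries, which are all irradiated, Pcna (adjusted p = 8.89e-05) and Tk1 (adjusted p = 0.0489) were called lower by limma, beside 34.7% of all genes. The neutrophil precursor sum was 290 to 441 CPM in M1 against 624 to 1286 CPM in M0; its part in these differences was not tested.

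In the irradiated arms, most genes had M1 means above M0 means, the opposite order to that without irradiation, but the test of the difference called no gene. The M1 minus M0 difference of group means had a median of 0.53 after FLASH (32 of 33 genes positive) and 0.24 after standard (28 of 33). With the 5 libraries at odds with their labels left out, these medians were 0.73 and 0.58, with 32 of 33 positive in each arm. The single negative gene was then Pcna in both, at -1.04 and -1.05, beside -1.27 without irradiation.

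**Figure D3:**
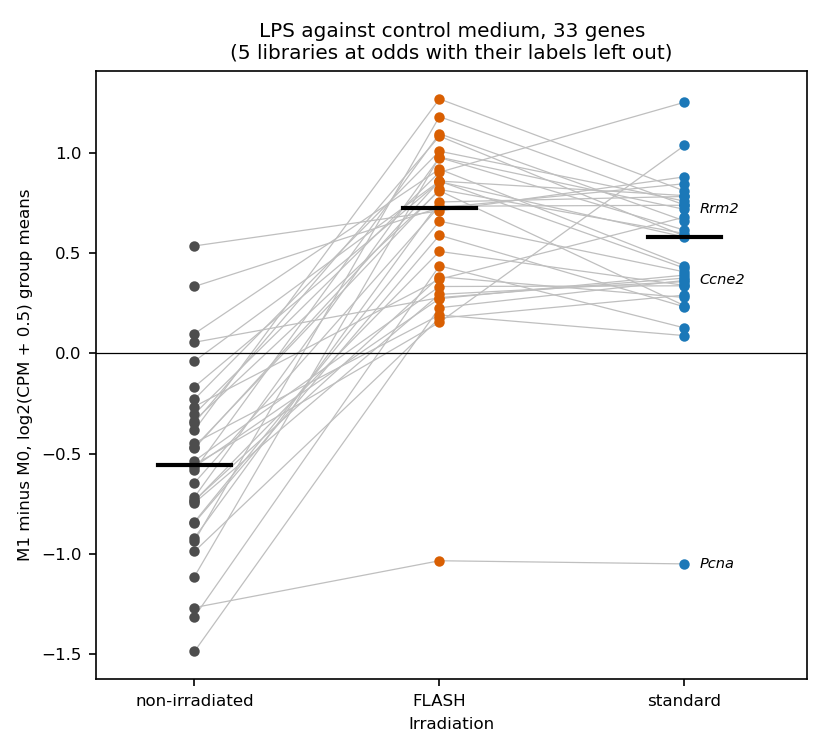
M1 minus M0 difference of group means on the log2(CPM + 0.5) scale for each of the 33 genes (points, joined by gene) in the 3 irradiation arms, without the 5 libraries at odds with their labels (3 libraries a group without irradiation, 2 in FLASH M0, FLASH M1 and standard M1, 3 in standard M0); black bars are medians. The medians are -0.56, 0.73 and 0.58, and Pcna is below 0 in each arm.

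The test of that difference, the interaction of irradiation with LPS, called 0 of 33 genes in either arm by limma (0.12% and 0.0902% of all genes were called). The FLASH interaction had a median of 1.06 and an unadjusted p below 0.05 for 14 genes, all positive (9.84% of all genes passed that level). The standard interaction had a median of 0.79 and no gene at that level (8.34% of all genes). Rrm2 had values of 1.92 ± 0.89 and 1.41 ± 0.89, with adjusted p of 0.491 and 0.684. Pcna had 0.59 (95% interval -0.58 to 1.77) and 0.62 (-0.55 to 1.79). The interactions share their non-irradiated libraries. When the 5 libraries were left out, 0 genes were called in either arm (0.384% of all genes in each), and 13 and 8 had an unadjusted p below 0.05, all positive.

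Libraries within the irradiated M1 groups were uneven. As a median over the 33 genes relative to non-irradiated M0, replicates 1, 2 and 3 stood at -0.69, -0.38 and -0.67 without irradiation, at -0.75, -0.27 and 0.26 after FLASH, and at -0.89, -0.39 and 0.30 after standard. Replicate 3 of both irradiated M1 groups was therefore high and replicate 2 lay near or inside the non-irradiated range. For Rrm2 the 3 libraries were at 18.1, 28.8 and 63.8 CPM after FLASH and 15.7, 25 and 60.3 CPM after standard, against 19.5 to 26.7 CPM. The same 2 replicate 3 libraries had 48.1 and 45.5 CPM of the proliferation marker Mki67, against 24.7 and 21.8 CPM in replicate 2. Their summed neutrophil precursor markers were 291 and 263 CPM, against 68.6 and 73.0 CPM in replicate 2 and 290 to 441 CPM without irradiation, while Mpo was at 4.88 and 0.037 CPM. The part of these markers in the higher replication genes was not tested.

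Direct comparison of irradiated with non-irradiated M1 called 0 genes for FLASH (2.53% of all genes) and 0 for standard (2.6%) by limma. At an unadjusted p below 0.05 the counts were 2 and 3, all higher, beside 15.5% and 17.5% of all genes. Libraries did not overlap, with irradiated higher, for 5 genes after FLASH (10.5% of all genes) and 3 after standard (11.8%), and for none with irradiated lower (share of all genes not given here). Gins2 was in both sets, at 12.2, 16.1 and 13.3 CPM without irradiation, 20.8, 25.4 and 42.3 after FLASH and 18.6, 28.0 and 34.4 after standard, a 2.01-fold and a 1.86-fold difference with limma adjusted p of 0.202 and 0.241. Pcna was in both sets as well. Its highest values, 554 CPM in FLASH M1 and 681 CPM in standard M1, came from libraries at odds with their labels, but it stayed in both sets without them. Without the 5 libraries, irradiated M1 lay above non-irradiated M1 for 23 genes after FLASH (18.1% of all genes) and 19 after standard (19.1%). At an unadjusted p below 0.05 the counts were then 4 for FLASH and 5 for standard, all higher, beside 19.0% and 21.0% of all genes. By limma 0 genes were then called for FLASH (4.84% of all genes) and 1 for standard (5.52%). E2f1 was that gene, with 63.9 and 57.5 CPM against 33.3 to 43.4 CPM (log2 difference 0.62 ± 0.15, limma adjusted p = 0.0195).

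**Figure D4:**
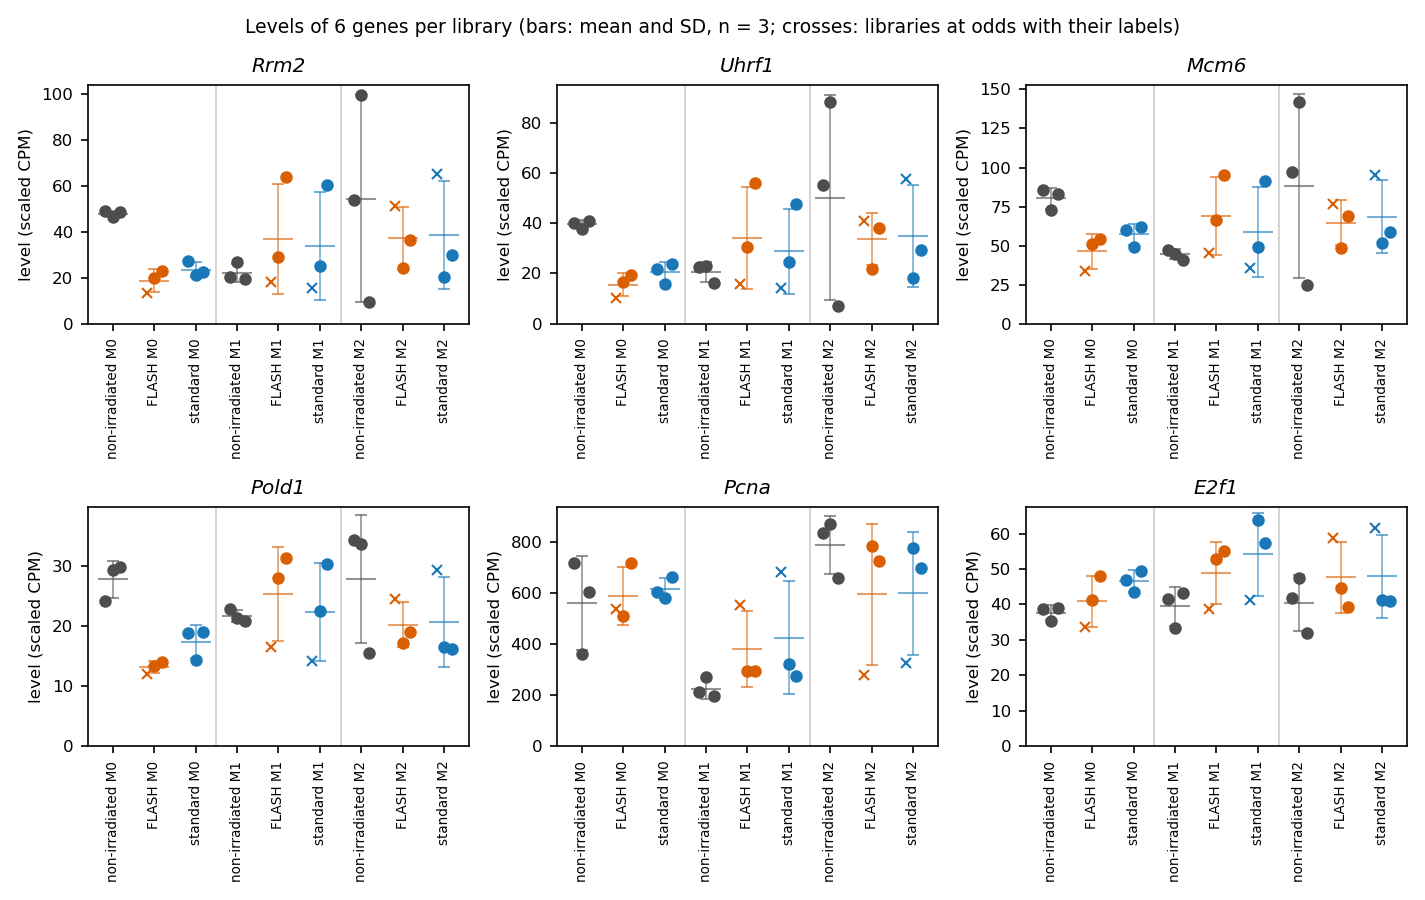
Levels in scaled CPM of Rrm2, Uhrf1, Mcm6, Pold1, Pcna and E2f1 in every library of the 9 groups, with the mean and SD of the 3 libraries; crosses are the 5 libraries at odds with their labels. Rrm2, Uhrf1 and Mcm6 show tight non-irradiated M0 and M1 groups and a wide non-irradiated M2 group, whereas Pcna is lowest in non-irradiated M1.

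In the IL-4 state the non-irradiated libraries differed widely from one another. Rrm2 was at 53.9, 99.5 and 9.43 CPM, Uhrf1 at 55.1, 88.4 and 7.08 and Mcm6 at 97.4, 142 and 24.9 CPM in non-irradiated M2 replicates 1, 2 and 3. Replicate 2 was the highest of all 27 libraries for 28 of the 33 genes and replicate 3 the lowest of all 27 for 20. Replicate 3 also stood apart in other genes: Mki67 was at 14.7 CPM against 51.3 and 83.1, Mpo at 2.07 against 53.1 and 26.3, and the neutrophil precursor sum at 82.3 against 363 and 272 CPM. Its IL-4 gene Retnla, at 3064 CPM, matched its label, whereas Arg1 was at 161 CPM against 713 and 653 CPM in replicates 1 and 2. Its irradiation gene Phlda3, at 43.5 CPM, was within the range of the other non-irradiated libraries. Its Cdkn1a, at 353 CPM, was the highest of the 9 non-irradiated libraries and below the lowest irradiated one at 478 CPM.

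Irradiated M2 libraries lay between these extremes for Rrm2, which was at 51.0, 24.0 and 36.6 CPM after FLASH and 65.3, 20.5 and 29.8 after standard, where replicate 1 of each is a library at odds with its label. By limma 0 genes were called for FLASH (1.1% of all genes) and 0 for standard (1.35%). At an unadjusted p below 0.05 the count was 0 in either, beside 13.6% of all genes in each. Medians were -0.14 and -0.19, and no gene of the set had groups that did not overlap (share of all genes not given here). Without the 5 libraries the medians were -0.32 and -0.50, with 27 and 32 of 33 values negative. The smallest adjusted p was then 0.206 for FLASH and 0.130 for standard by limma. At an unadjusted p below 0.05 the counts were 2 and 3, all lower, beside 17.2% and 17.8% of all genes. Orc6, 1 of the 33 genes, then lay below all its controls in both arms. The share of all genes with that ordering is not given here. IL-4 against control medium without irradiation called 0 genes (9.83% of all genes were called). Orc6 was the 1 gene at an unadjusted p below 0.05, beside 25.5% of all genes. The median was -0.06, with a range from -0.56 (Tk1) to 0.75 (Ccne1). Orc6 was called higher without the 5 libraries (0.71, limma adjusted p = 0.0474), beside 26% of all genes. Interactions of irradiation with IL-4 called 0 of 33 genes in both arms, beside 0% of all genes. No gene of the set had an unadjusted p below 0.05, beside 5.95% of all genes for FLASH and 4.97% for standard.

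Leaving out non-irradiated M2 replicate 3 together with the 5 libraries changed these counts in every state. As that library was picked for its levels of these genes, the counts describe its weight in the model and are no separate test. FLASH M2 then had 8 genes called lower (3.88% of all genes called) and standard M2 18 (4.26%). With 2 libraries a group, 28 genes for FLASH (24.6% of all genes) and 33 for standard (27.8%) lay below both remaining controls. In M0 the calls were 6 lower for FLASH (6.79%) and 5 for standard (9.66%), in M1 4 higher (6.06%) and 4 higher (7.05%), and in the LPS interaction 6 (1.27%) and 3 (1.04%), all positive. Over the mean of states 5 and 11 were called (15.6% and 19.2%), for M1 against M0 18 (36.7%) and for M2 against M0 10, all higher (25.4%).

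**Figure D5:**
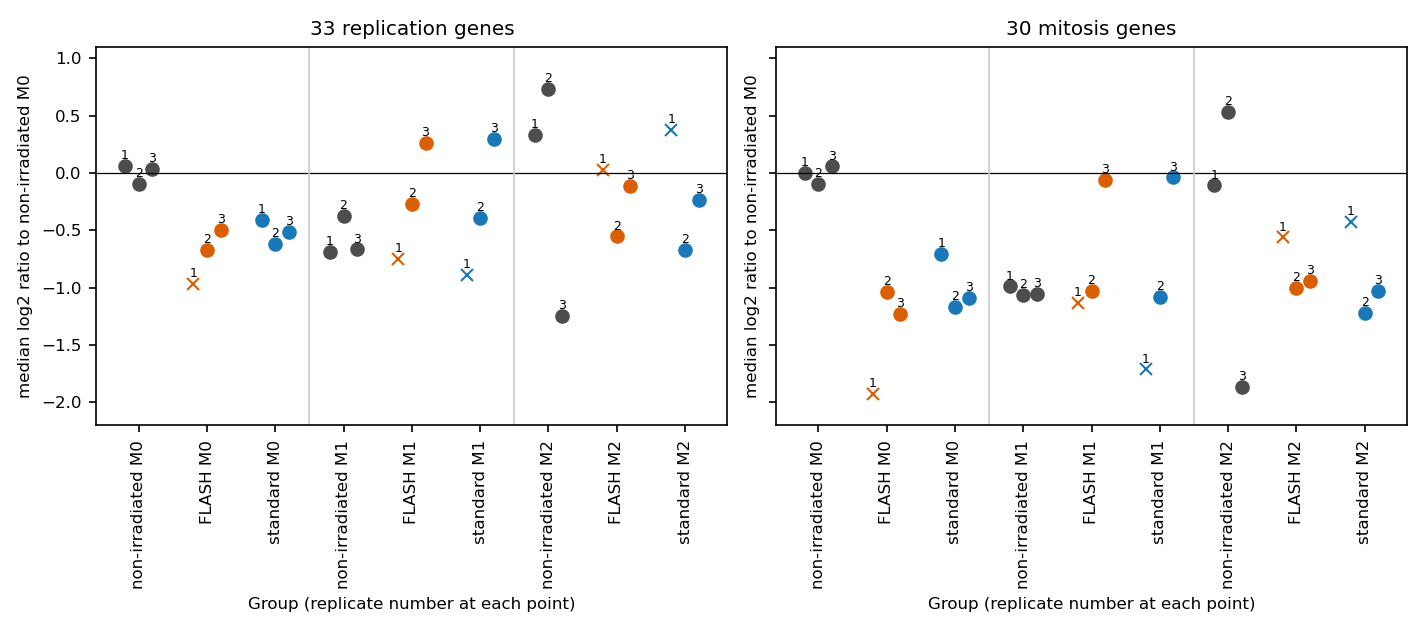
Median log2 ratio to non-irradiated M0 over the 33 replication genes (left) and 30 mitosis genes (right) in each library, with replicate numbers; crosses are libraries at odds with their labels. Irradiated M0 libraries lie from -0.97 to -0.41 on the left, and non-irradiated M2 replicate 3 is the lowest point on the left at -1.25.

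No gene of the set differed between the beams past the threshold. Averaged over the 3 states, FLASH minus standard had a median of -0.03 over the 33 genes. The difference farthest from 0 was that of Orc1 at -0.30. The count called was 0 (0% of all genes), with 0 at an unadjusted p below 0.05 (2.96% of all genes). Without the 5 libraries, which all lie in these arms, the median was 0.05, with 22 values positive and 11 negative. They ran from -0.29 (Orc1) to 0.30 (Ccne1), with 0 at an unadjusted p below 0.05 (8.05% of all genes). In the fit of all 27 libraries the 95% intervals left room for differences. They ran for Rrm2 from -0.80 to 0.71, for Mcm6 from -0.57 to 0.50 and for Pold1 from -0.42 to 0.30 on the log2 scale. In control medium the FLASH libraries were below the standard ones without overlap for Cdc6, Mcm3, Pold1, Rrm1 and Chaf1b (5 genes, 4.32% of all genes) and above them for Rfc3 (4.6%). Without FLASH M0 replicate 1, Mcm7 also lay above the standard libraries, an ordering whose share of all genes is not given here. Averaged over states, each beam against no irradiation also called 0 genes (7.72% of all genes for FLASH and 7.88% for standard). At an unadjusted p below 0.05 the counts were 2 and 1, beside 21.4% and 22.2% of all genes. E2f1 was called higher for standard without the 5 libraries (0.32, limma adjusted p = 0.0109), beside 17.9% of all genes. Leaving out standard M1 replicate 1 alone also gave 1 call for standard (7.29% of all genes), and leaving out non-irradiated M2 replicate 3 alone gave 4 for FLASH (7.88%).

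Genes with related roles were counted from lists written for this purpose. Of 50 other replication genes, 1 was called lower for FLASH over the mean of states and 1 for standard, in both cases Mcmbp, which binds the helicase subunits (log2 -0.36 and -0.21, limma adjusted p = 0.0015 and 0.0498), beside 7.72% and 7.88% of all genes. In M0 alone 1 was called for FLASH, Rpa3, a subunit of the single-strand binding protein (-0.92, limma adjusted p = 0.0267), beside 2.11% of all genes. Their M0 medians were -0.42 and -0.36, nearer 0 than those of the 33 genes. In non-irradiated M1 against M0, 3 of the 50 were called lower, Dna2 (-1.47), Topbp1 (-0.86) and Dtymk (-0.59), and 2 higher, Orc4 (0.59) and the deoxycytidine kinase Dck (1.56), beside 17.4% of all genes.

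Of 30 mitosis genes, 0 were called for irradiation in any state, and their M0 medians were -1.34 after FLASH and -0.95 after standard with 30 of 30 negative in each. LPS without irradiation called 5 of the 30 lower, among them Cenpa (-2.21), Ccnb2 (-1.63) and Kif11 (-1.48), a share near the 17.4% called among all genes. Of 18 p53 target genes, 8 were called higher and 1 lower for FLASH over the mean of states, and 9 higher and 1 lower for standard, beside 7.72% and 7.88% of all genes. Cdkn1a, a cyclin-dependent kinase inhibitor, rose by 1.33 and 1.40 on the log2 scale and Phlda3 by 2.02 and 2.11.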

How the data were processed

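RNA-seq values of 27 libraries were used as deposited. The deposited signal is a read count on a linear scale, scaled per library to about 1000000 reads; columns sum to 929338 to 1072650 and 97.8% of values came out as whole reads within 0.01 read. As not all did, tests made for counts were not used. Per the submitters' processing notes the authors used kallisto 0.46.1, edgeR 3.36.0 and R 4.0.5, and the notes name build GRCh38 for these mouse samples, so promoter coordinates come from RefSeq instead. A single row had no gene symbol (at most 0.00799% of a library) and was left out.

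Groups were taken from the labels. Genes at 1 CPM or more in 3 or more libraries were tested (13297, including all 33 members). A model of 9 group means was fitted to log2(CPM + 0.5) of all 27 libraries with limma 3.58.1 in R 4.3.3 (statmod 1.5.0; trend and robust moderation), and p-values were adjusted by Benjamini-Hochberg within each of 15 comparisons at a threshold of 0.05. Fold changes on this scale understate changes of low genes. Python 3.11.15, numpy 2.4.6, pandas 2.3.3 and scipy 1.17.1 were used. The fit was tested on simulated data.

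All 33 members could be named in every comparison; of other lists, up to 3 called genes a direction, or the one with the smallest p, plus irradiation and state check genes. The members and lists were chosen with earlier results of these data known. Alternatives tried were a pseudocount of 2, no filter, median-of-ratios scaling, a replicate block, only the compared groups, replicate numbers 2 and 3 only, leaving out each library, and a fit without the 5 libraries whose state genes contradict their labels. Leaving out non-irradiated M2 replicate 3 together with those 5 was added after seeing the data.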

Additional observations from a re-analysis of the deposited data

How the results depend on the processing

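Counts of members called stayed at the reported value under a pseudocount of 2, no filter and median-of-ratios scaling. Without the 5 libraries at odds with their labels, 2 were called for FLASH in M0, 1 for standard in M1 and over the mean of states (E2f1, also 1 with the replicate block and over the mean also with replicate numbers 2 and 3 only or without standard M1 replicate 1), 2 for M1 against M0 and 1 for M2 against M0 (Orc6). With replicate numbers 2 and 3 only, 1 was called for FLASH in M0. Only the compared groups gave 8 for FLASH in M0, 8 for standard in M0 and 18 for M1 against M0.

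Leaving out non-irradiated M2 replicate 3 as well gave 5 for FLASH and 11 for standard over the mean of states, 6 and 5 in M0, 4 and 4 in M1, 8 and 18 in M2, 18 for M1 against M0, 10 for M2 against M0, and 6 and 3 for the interactions with M1. Leaving out each library in turn gave 0 to 4 for FLASH over the mean of states (4 without non-irradiated M2 replicate 3), 0 to 1 for standard, 0 to 1 for M1 against M0 and 0 elsewhere. Uhrf1 for standard against non-irradiated, mean of states, changed sign to 0.0038 without non-irradiated M2 replicate 2, and was called at -0.60 without the 5 libraries and non-irradiated M2 replicate 3. For FLASH in M0, leaving out non-irradiated M2 replicate 3 beside the 5 libraries kept the median difference at -0.56. The median SE of the 33 genes went from 0.42 to 0.26. Each of these fits also holds fewer libraries, and the cause of these shifts was not tested.

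The replicate block took the M1 against M0 count from 1 to 0 and changed no other count with all libraries. Same-numbered libraries share a code in their titles whose meaning the labels do not give; 9 of 108 same-numbered pairs had deviations correlated above 0.1 and 0 of 27 libraries were closest on average to their own number. In FLASH M1 with standard M1 (0.36 to 0.595) and FLASH M2 with standard M2 (0.464 to 0.783) all 3 pairs were above 0.1, each with a replicate 1 pair at odds with its labels; without these the M1 pairs were at 0.143 and the M2 pairs at -0.016. Non-irradiated M0 and M1 pairs lay from -0.13 to 0.043. With the block, FLASH against standard still had 0 calls. Libraries of 20679257 to 25844213 reads leave genes near 1 CPM, such as Orc1, imprecise.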

Other observations

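Of 34 tested genes of cyclin, CDK and Rb-E2F control, 2 were called higher and 1 lower for FLASH over the mean of states, and 5 higher and 1 lower for standard, by limma, beside 7.72% and 7.88% of all genes; the share for FLASH is near that background. Cdkn1b, a CDK inhibitor, fell by 0.63 and 0.71 on the log2 scale (limma adjusted p = 0.0228 and 0.0105). Ccnd1, the cyclin D that carries growth signals to the cell cycle, rose by 1.03 on the log2 scale after standard (limma adjusted p = 0.0105). It was at 110 to 244 CPM in non-irradiated M0 and 384 to 603 CPM in irradiated M0. In M2 the arms overlapped, at 283 to 461 CPM without irradiation, 180 to 565 after FLASH and 238 to 657 after standard. The lowest value of each irradiated M2 group came from replicate 1, at odds with its label. LPS without irradiation called 2 of the 34 higher and 4 lower, a share near the 17.4% called among all genes; they include the CDK inhibitors Cdkn1c (-3.34) and Cdkn2c (-1.70) and Tfdp2 (-1.17), a partner of E2F factors. Tfdp2 was also the gene of this list called for the interaction of FLASH with LPS (1.36, limma adjusted p = 0.0461), beside 0.12% of all genes.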
